A study of Homo sapiens with 24 samples.

Results

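The nucleolar ribosome biogenesis factors described here are 57 genes, most of whose proteins transcribe, modify, cut or assemble ribosomal RNA, among 12058 genes that had no zero count in any of 24 RNA sequencing libraries of PANC-1 cells. They were found by a pattern on gene names, which takes the numbered NOP, UTP, RRP, NOL and IMP genes, the subunits POLR1A to POLR1H of RNA polymerase I, and DNTTIP2, FBL, DKC1, NCL, NPM1, BOP1, PES1, WDR12, WDR36, WDR43, GNL2, GNL3 and BRIX1. The pattern matched 60 of the 54583 genes in the table, and 3 of these had a zero count and were left out. NOL4 and UTP14C had no count in any of the 24 libraries, and NOL4L was at 0 in 1 library and reached at most 27 counts. The member nearest to this limit, NOP53, had a lowest count of 2 and a highest of 37. By what their proteins do, the members fell into 8 subunits of RNA polymerase I, 3 proteins of box C/D and 2 of box H/ACA small nucleolar ribonucleoproteins, 2 abundant nucleolar proteins, 25 factors of the small subunit, 15 factors of the large subunit and 2 genes, NOL3 and NOL8, that the pattern takes by name alone.

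PANC-1 is an established human cell line derived from a duct carcinoma of the pancreas. The study asked how 2 compounds that the authors describe as targeting the kinase MNK2 change which mRNAs are translated, by sequencing total cytosolic RNA and the RNA bound by more than 3 ribosomes (polysome-associated RNA) of the same plates. The control plates received DMSO for 6 h, the plates of the next group 40 µM CID661578 for 6 h, and those of the last group 5 µM cercosporamide for 6 h. Each group had 4 replicate plates, and the doses of the compounds differ, so a difference between them holds for these doses.

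Ribosomes are built in the nucleolus, where RNA polymerase I makes a long precursor that small nucleolar ribonucleoproteins modify and the small subunit processome and the pre-60S factors fold and cut. Growing cells spend much of their protein synthesis on this machinery, and tumour cells often hold large nucleoli. MNK kinases phosphorylate the cap-binding factor eIF4E, which links them to translation.

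Libraries held between 9268041 and 12184749 counts, apart from the polysome library of cercosporamide replicate 4, which held 1592459. Among markers of duct epithelium, KRT8, KRT18 and KRT19 were high in every library, with median levels of 6484, 3085 and 1904 CPM (counts in a library of 1000000, for the markers without further scaling). KRT7, SOX9, EPCAM and MUC1 had counts in all 24 libraries at median levels of 14.1, 17.3, 6.69 and 3.11 CPM, and CFTR had none in any. Of the acinar markers, PRSS1 was at 0 in 24 libraries, CTRC in 23, CPA1 in 21 and CELA3A in 4, with at most 14 counts in a library. The islet markers INS and SST were at 0 in all 24 libraries and GCG in 22, with at most 3 counts. Endothelial CDH5 was at 0 in 24 libraries, VWF in 18 and PECAM1 in 10, with at most 5 counts. The leukocyte markers PTPRC and CD3E had no count in any library, and CD68, which many cell lines express, had a median of 455 CPM.

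Counts on the 57 members made up a larger share of polysome-associated RNA with cercosporamide than with DMSO. In polysome libraries this share was 0.878% ± 0.0821 (SD, n = 4) with DMSO, 0.961% ± 0.0927 with CID661578 and 1.09% ± 0.0867 with cercosporamide. The 4 cercosporamide libraries, between 1.01% and 1.19%, all lay above the 4 DMSO libraries, between 0.783% and 0.962%, and the CID661578 libraries overlapped both. In total RNA the members took 0.646% ± 0.0443 of counts after DMSO, 0.666% ± 0.0665 after CID661578 and 0.621% ± 0.0451 after cercosporamide.

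**Figure D1:**
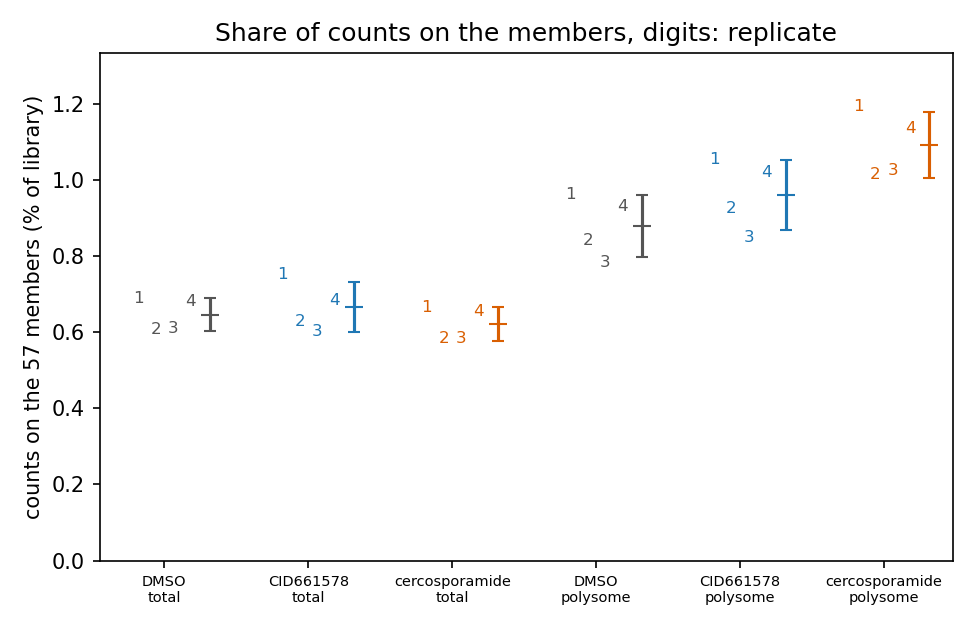
Counts on the 57 members as a percentage of each library's counts, with 1 digit per library (the replicate number) and the mean ± SD of 4 libraries beside them. In polysome-associated RNA the cercosporamide libraries lie between 1.01% and 1.19%, above the DMSO libraries.

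Translational efficiency (TE) was read as polysome-associated over total RNA, and its log2 change with a compound was taken against DMSO. It was tested across all 12058 genes by edgeR (quasi-likelihood test, p-values adjusted after Benjamini and Hochberg), and a call needed an adjusted p under 0.15 together with a fold over 1.2. After cercosporamide treatment, TE rose for 24 of the 57 members (42.1%), where 15.8% of all tested genes rose. It fell for 2 members (3.51%), where 12.6% of tested genes fell. The median TE change of the members was 0.35, over a range from −1.18 to 2.18, and that of all tested genes was −0.00. Without cercosporamide replicate 4, the plate of the small library, 23 members rose and 3 fell, beside 1809 and 1375 tested genes, and the 23 were among the 24. Without replicate 2, 16 members and 1044 of the 12058 tested genes rose, and 1 member and 768 tested genes fell. Without replicate 4, 21 members rose and 4 fell, beside 1598 and 1222 tested genes. With neither plate nor replicate terms in the model, 13 rose and 1 fell, beside 621 and 336 tested genes, where the unaltered model gave 1907 and 1515.

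The rises came with higher polysome-associated RNA. All 24 members were also called up in polysome-associated RNA tested alone, and all 24 changed more in polysome-associated than in total RNA. Their choice by a TE rise in the same libraries largely fixes both counts. The total RNA estimate was below 0 for 19 of the 24 and for 34 of the 57 members, and none of these was called. It was above 0 for 23 of the 57 members and for 44.5% of tested genes. In polysome-associated RNA 27 members rose with cercosporamide (17.1% of tested genes) and 3 fell (16.0% of tested genes). Without replicate terms 17 rose and edgeR called 0 falls, with 2 lower at an unadjusted p below 0.05, and 1130 tested genes rose and 793 fell. The number of falls was 5 without replicate 1 and 1 without replicate 2, beside 1688 and 1239 tested genes. For 21 of the 24, the TE estimate was above 0 in 4 of 4 replicates. In 13 of the 24, the 4 cercosporamide polysome libraries all lay above the 4 DMSO libraries. The 24 were called from these same libraries, so both counts follow in part from that choice. Of all 57 members, 22 were above 0 in TE in 4 of 4 replicates and 6 below, and the share of tested genes was not taken. Over all members, 14 had cercosporamide polysome libraries that did not overlap those of DMSO from above (8.43% of tested genes) and none had libraries that all lay below (5.73% of tested genes).

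Total RNA gave no called member with cercosporamide, where 0.0829% of tested genes were called in either direction by edgeR. At an unadjusted p below 0.05, total RNA was higher for 2 members and lower for 1, where 5.33% of tested genes were higher and 5.85% lower. DESeq2 called 0 members in either direction, beside 268 higher and 128 lower tested genes. The median total RNA change of the members was −0.06, beside −0.05 for all tested genes.

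**Figure D2:**
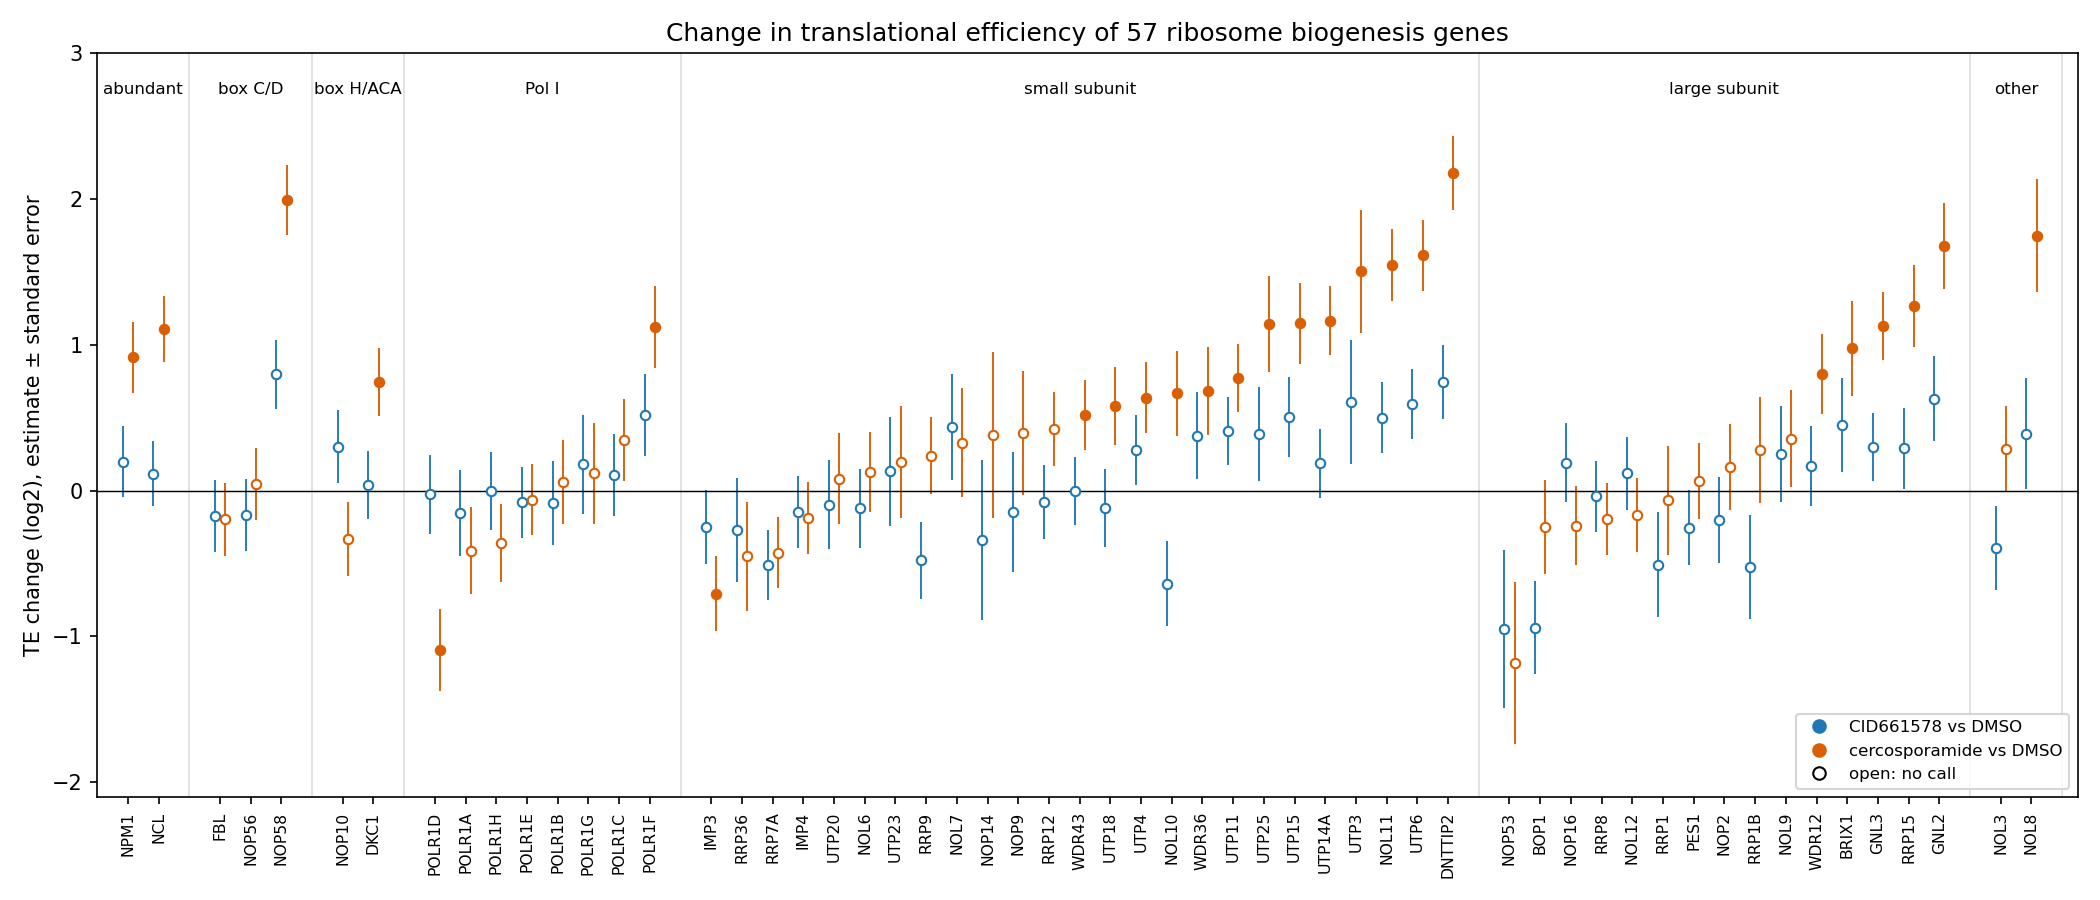
TE change of each of the 57 members with CID661578 and with cercosporamide against DMSO (log2, estimate ± standard error from edgeR), ordered by role. With cercosporamide 24 members pass the call upwards and 2 downwards, and with CID661578 none passes.

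The base composition of the transcripts moved with these changes. Across the 57 members, the TE change with cercosporamide correlated with the GC content of the canonical transcript with r = −0.64 and rho = −0.68, and across 11571 tested genes with r = −0.51. Genes share the same libraries, so these correlations are descriptions across genes, and genes are not independent replicates. The 24 members that rose had a median GC content of 41.7%, the 31 without a call one of 52.8%, and all tested genes with a value one of 47.5%. A division at the members' median of 47.17% was chosen after seeing the data. Below it, 22 of 28 members rose, beside 30.9% of the tested genes in that range, and the members' median TE change was 0.94 beside 0.44 for those genes. At or above it, 2 of 29 members rose, beside 2.33% of the tested genes, and the medians were 0.04 and −0.28.

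Libraries themselves differed in how counts followed GC content. In each library the median deviation of log2 CPM from the gene's mean was taken for the fifth of genes lowest in GC minus the fifth highest in GC. In polysome libraries this value was −0.17, −0.79, −0.55 and −0.24 for DMSO replicates 1 to 4, and 0.24, −0.37, 0.66 and 0.93 for cercosporamide. The CID661578 polysome libraries had 0.46, −0.67, 0.43 and 0.61. As polysome minus total against DMSO, the value was 0.80, 1.80, 0.34 and 1.29 in the cercosporamide replicates, all above 0. In the same replicates the median TE change of the members was 0.61, 0.48, 0.41 and 0.34.

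With each library's GC trend taken out by offsets, 18 members rose, 15 of them among the 24, and 1 fell, while 1230 of 12058 tested genes rose and 1375 fell. NOL3, RRP9 and RRP12 were called up there and not without the offsets. The members no longer called were BRIX1, NOL10, NPM1, POLR1F, RRP15, UTP18, WDR12, WDR36 and WDR43 among the rises and IMP3 among the falls, and WDR36 had an estimate of −0.02 there. The members' median with these offsets was 0.43, beside 0.00 for all tested genes. What part base composition has in the TE changes was not tested.

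**Figure D3:**
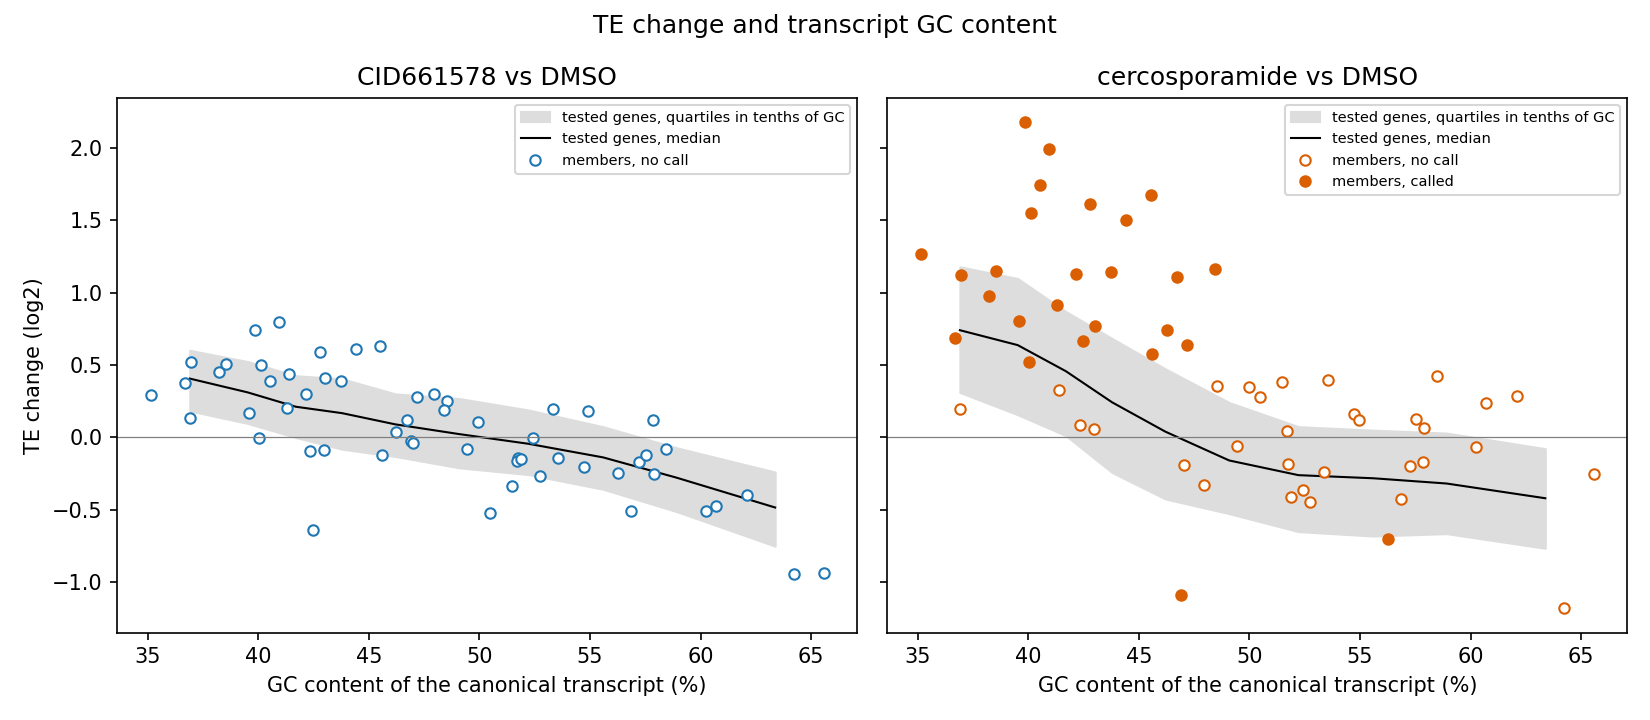
TE change (log2) of the 57 members against the GC content of the canonical transcript (%), for each compound, with the median and quartiles of all tested genes in 10 bins of GC content. Filled points passed the call; 22 of the 24 rises with cercosporamide lie below a GC content of 47.17%.

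NCL and NPM1, the abundant proteins of the nucleolus, both rose in TE with cercosporamide, where 15.8% of tested genes rose. NCL encodes nucleolin, which binds nascent ribosomal RNA. Its polysome-associated RNA, in CPM of replicates 1 to 4 scaled by TMM factors, as all CPM of members are, was 273, 171, 367 and 477 with DMSO, 396, 195, 303 and 341 with CID661578 and 539, 399, 387 and 622 with cercosporamide. The DMSO and cercosporamide libraries overlapped, since replicates 2 and 3 with cercosporamide lay below the highest DMSO library. Total NCL RNA was 214, 187, 333 and 339 CPM with DMSO, 301, 189, 213 and 264 with CID661578 and 180.2, 178, 196 and 209.8 with cercosporamide. The TE change with cercosporamide was 1.11 (standard error 0.226, adjusted p = 0.00189), with 1.23, 1.30, 0.83 and 1.08 in the replicates.

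NPM1 encodes nucleophosmin, a chaperone of the nucleolar granular zone. Polysome-associated NPM1 RNA was 846, 498, 930.4 and 939 CPM with DMSO, 1177, 671, 1043 and 1224 with CID661578 and 1281, 1047, 1662 and 1638 with cercosporamide. All cercosporamide libraries lay above all DMSO libraries, and 3 of the 4 CID661578 libraries did. Total NPM1 RNA was 681, 826, 869 and 805 CPM, 932, 707, 955 and 988 CPM and 654, 564, 939 and 895 CPM in the same order of groups, which overlapped. The TE change with cercosporamide was 0.91 (standard error 0.242, adjusted p = 0.0119), above 0 in 4 of 4 replicates. It was not called with GC offsets (0.50, adjusted p = 0.162), without replicate 2 (0.68, adjusted p = 0.170) or with neither plate nor replicate terms (0.87, adjusted p = 0.156). Reads were counted at each place they align, so reads from copies of NPM1 elsewhere in the genome may be among these counts.

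**Figure D4:**
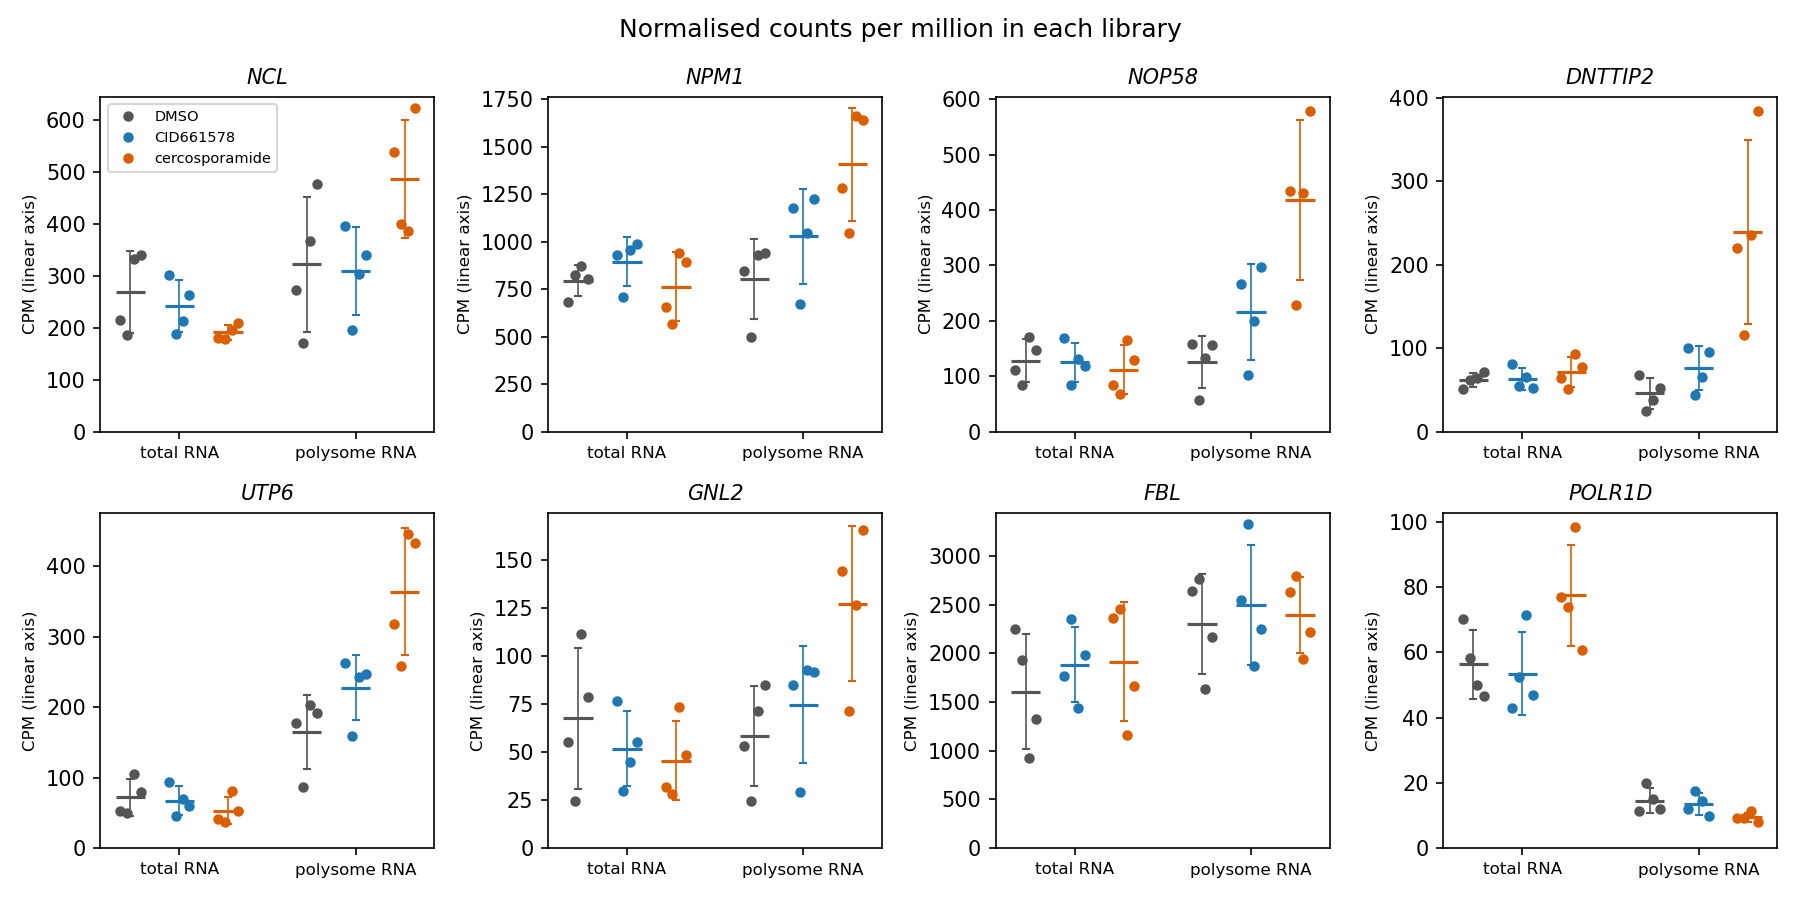
CPM in each library of 8 members, with points for replicates 1 to 4 from left to right and bars for the mean ± SD of 4 libraries. Polysome-associated RNA of NPM1, NOP58, DNTTIP2 and UTP6 is higher in all 4 cercosporamide libraries than in all 4 DMSO libraries, and FBL libraries overlap.

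Of the 3 proteins of box C/D small nucleolar ribonucleoproteins, which guide 2′-O-methylation of ribosomal RNA, 1 rose in TE with cercosporamide. Among all tested genes 15.8% rose. NOP58, a core protein of these particles, had 158, 57.5, 133 and 156 CPM in polysome-associated RNA with DMSO, 266, 102, 199 and 298 with CID661578 and 433, 229, 431 and 579 with cercosporamide. The cercosporamide libraries all lay above the DMSO libraries, and 3 of 4 CID661578 libraries lay above them too. Total NOP58 RNA was 110.4, 84.1, 170.2 and 148 CPM with DMSO, 168, 83.9, 130.3 and 118 with CID661578 and 84.2, 68.0, 165 and 129 with cercosporamide, and the groups overlapped. The TE change with cercosporamide was 1.99 (standard error 0.240, adjusted p = 3.52e-05), with 1.84, 2.29, 1.74 and 2.08 in the replicates.

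NOP56, the partner of NOP58 in the same particles, had 76.4, 57.1, 214 and 155 CPM in polysome-associated RNA with DMSO, 81.4, 52.3, 122 and 78.5 with CID661578 and 96.3, 82.7, 95.5 and 99.3 with cercosporamide. All cercosporamide libraries lay inside the DMSO range. Its total RNA was 132, 96.0, 229.5 and 168 CPM, 131, 80.5, 139.6 and 147 CPM and 127, 99.5, 156 and 113 CPM in the same order, and the TE estimate with cercosporamide was 0.04 (standard error 0.248, adjusted p = 0.928). FBL, the methyltransferase fibrillarin, had 2643, 2762, 1632 and 2169 CPM in polysome-associated RNA with DMSO, 2549, 3325, 1870 and 2246 with CID661578 and 2635, 2798, 1938 and 2220 with cercosporamide. These groups overlapped. Total FBL RNA was 2246, 1931, 923 and 1326 CPM, 1765, 2354, 1440 and 1978 CPM and 2364, 2460, 1165 and 1664 CPM, and the TE estimate was −0.20 (standard error 0.249, adjusted p = 0.639).

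Box H/ACA particles guide pseudouridylation, and 1 of their 2 members rose in TE with cercosporamide, beside 15.8% of tested genes. DKC1, the pseudouridine synthase dyskerin, had 209.6, 118, 277 and 232 CPM in polysome-associated RNA with DMSO, 243, 117, 201 and 233 with CID661578 and 325, 197, 291 and 359 with cercosporamide. Replicate 2 was the lowest in each group, and the 3 other cercosporamide libraries lay above every DMSO library. Total DKC1 RNA was 143, 97.1, 224 and 230.3 CPM, 177, 124, 167 and 147 CPM and 124, 95.3, 187 and 174 CPM in that order, and the TE change was 0.74 (standard error 0.235, adjusted p = 0.0316), not called with neither plate nor replicate terms (adjusted p = 0.350). NOP10, a small partner of dyskerin, had 149.8, 193, 120.0 and 81.4 CPM in polysome-associated RNA with DMSO, 145, 215, 171 and 164 with CID661578 and 96.2, 130.4, 183 and 172 with cercosporamide. The cercosporamide libraries lay inside the DMSO range. In total RNA it had 479, 463, 403 and 359 CPM, 419.7, 415, 577 and 426 CPM and 618, 474, 731 and 516 CPM, and the TE estimate with cercosporamide was −0.33 (standard error 0.252, adjusted p = 0.399). Without replicate 4 it was called down (−0.62, adjusted p = 0.138).

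Among the 8 subunits of RNA polymerase I, TE rose for 1 and fell for 1 with cercosporamide, near the 15.8% and 12.6% of all tested genes, and their median was −0.00. POLR1F, a subunit of the polymerase stalk, had 52.7, 46.5, 33.4 and 47.6 CPM in polysome-associated RNA with DMSO, 58.4, 44.2, 45.8 and 65.1 with CID661578 and 81.7, 64.3, 78.6 and 80.8 with cercosporamide. All 4 cercosporamide libraries lay above the DMSO libraries. Total POLR1F RNA was 22.6, 23.7, 26.7 and 26.1 CPM, 32.5, 17.0, 21.0 and 14.9 CPM and 15.2, 15.8, 27.8 and 21.6 CPM in that order. The TE change was 1.12 (standard error 0.282, adjusted p = 0.00886), and with GC offsets it was 0.43 and not called (adjusted p = 0.263).

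POLR1D, a subunit shared with RNA polymerase III, went the other way. Its polysome-associated RNA was 11.2, 19.9, 15.0 and 12.0 CPM with DMSO, 11.8, 17.6, 14.5 and 9.88 with CID661578 and 9.08, 9.14, 11.3 and 7.94 with cercosporamide. In total RNA the values were 70.4, 58.2, 50.1 and 46.7 CPM, 42.9, 52.4, 71.5 and 46.8 CPM and 76.8, 73.9, 98.3 and 60.8 CPM. With cercosporamide, 3 of 4 polysome libraries lay below every DMSO library and 3 of 4 total libraries lay above every DMSO library. The TE change was −1.09 (standard error 0.281, adjusted p = 0.0101), below 0 in 4 of 4 replicates. An analysis of partial variance gave −0.59 and no call (adjusted p = 0.185).

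POLR1A and POLR1B, the catalytic core subunits, had no TE call. POLR1A had 45.5, 40.6, 38.4 and 64.8 CPM in polysome-associated RNA with DMSO, 29.5, 28.2, 27.8 and 34.3 with CID661578 and 46.2, 37.0, 27.3 and 24.5 with cercosporamide. All CID661578 libraries lay below all DMSO libraries, while the cercosporamide libraries overlapped them. Total POLR1A RNA was 13.7, 11.5, 8.58 and 16.8 CPM, 9.18, 8.79, 6.88 and 10.7 CPM and 9.53, 15.3, 10.0 and 12.5 CPM, and the TE estimate with cercosporamide was −0.41 (standard error 0.298, adjusted p = 0.376). Tested alone, its polysome-associated RNA fell with cercosporamide, with an estimate of −0.47 (standard error 0.206, adjusted p = 0.112). This call was lost under 9 of the alternatives, among them leaving out cercosporamide replicate 4 (−0.22, adjusted p = 0.488), replicate 3 or replicate 4, GC offsets (−0.25, adjusted p = 0.416) and a model without replicate terms. POLR1B had 42.0, 34.7, 45.9 and 64.3 CPM in polysome-associated RNA with DMSO, 50.3, 31.9, 36.9 and 36.9 with CID661578 and 56.0, 36.4, 31.8 and 26.5 with cercosporamide. These groups overlapped. Its total RNA was 41.0, 25.5, 26.0 and 34.5 CPM, 48.2, 24.1, 19.7 and 26.2 CPM and 28.2, 20.0, 26.7 and 22.4 CPM, and the TE estimate was 0.06 (standard error 0.291, adjusted p = 0.917).

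Factors of the small subunit, the largest class with 25 of the 57 members, held 13 of the 24 rises. TE rose for 13 of 25 and fell for 1 with cercosporamide, beside 15.8% and 12.6% of tested genes, with a median of 0.52. DNTTIP2, a component of the small subunit processome, had the highest TE change of the 57 members. Its polysome-associated RNA was 68.4, 24.8, 38.1 and 52.9 CPM with DMSO, 100.4, 44.6, 65.5 and 96.0 with CID661578 and 220.2, 116, 236 and 384 with cercosporamide. The lowest cercosporamide library lay above the highest DMSO library, and 2 CID661578 libraries lay above it. Total DNTTIP2 RNA was 51.3, 62.1, 64.1 and 72.1 CPM, 81.1, 55.0, 65.6 and 52.4 CPM and 64.0, 51.6, 93.4 and 77.4 CPM, and these groups overlapped. The TE change was 2.18 (standard error 0.254, adjusted p = 3.52e-05), with 1.37, 2.48, 2.08 and 2.75 in the replicates.

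UTP6, a processome protein that binds early in assembly, had 177, 87.0, 203 and 192 CPM in polysome-associated RNA with DMSO, 262, 159.5, 243 and 247 with CID661578 and 319, 259, 446 and 434 with cercosporamide. Again the cercosporamide libraries did not overlap those of DMSO. Total UTP6 RNA was 52.9, 49.5, 105 and 79.4 CPM, 93.9, 45.7, 68.8 and 59.7 CPM and 41.4, 37.3, 80.9 and 52.7 CPM, with overlap. Its TE change was 1.61 (standard error 0.242, adjusted p = 0.000179), above 0 in 4 of 4 replicates.

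UTP14A, which acts with a helicase in the release of the processome, had 68.8, 38.8, 88.5 and 107 CPM in polysome-associated RNA with DMSO, 99.2, 40.8, 87.0 and 107 with CID661578 and 136, 104, 114 and 196 with cercosporamide. Replicate 2 with cercosporamide lay just under the highest DMSO library, and the other 3 lay above it. In total RNA UTP14A had 51.9, 43.3, 57.8 and 77.3 CPM, 65.0, 39.5, 47.4 and 72.7 CPM and 48.3, 34.7, 45.9 and 63.8 CPM. The TE change was 1.17 (standard error 0.239, adjusted p = 0.00196), and with neither plate nor replicate terms it was 1.11 and not called (adjusted p = 0.174).

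IMP3, which binds U3 small nucleolar RNA, was the small subunit factor whose TE fell. Its polysome-associated RNA was 53.0, 77.2, 56.9 and 47.6 CPM with DMSO, 39.5, 61.1, 39.4 and 47.5 with CID661578 and 37.3, 49.4, 41.8 and 38.4 with cercosporamide, and its total RNA was 78.7, 68.6, 75.7 and 66.5 CPM, 45.6, 68.8, 84.1 and 83.5 CPM and 86.0, 102, 69.8 and 82.8 CPM. With cercosporamide, 3 of 4 polysome libraries lay below and 3 of 4 total libraries lay above every DMSO library. The TE change was −0.71 (standard error 0.256, adjusted p = 0.0609), below 0 in 4 of 4 replicates. It was not called with GC offsets (−0.40, adjusted p = 0.243), without replicate 2 (−0.53, adjusted p = 0.337) or with neither plate nor replicate terms. Opposite-strand noncoding genes cover 41.1% and 13.0% of the IMP3 exons, and the counts ignore the strand.

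NOL6, another processome protein, had 65.1, 80.0, 81.4 and 101 CPM in polysome-associated RNA with DMSO, 56.0, 77.5, 41.2 and 43.4 with CID661578 and 89.9, 119, 56.3 and 61.6 with cercosporamide. With CID661578, 3 of 4 libraries lay below every DMSO library. Total NOL6 RNA was 36.7, 34.6, 34.3 and 34.4 CPM, 19.2, 36.5, 18.8 and 29.0 CPM and 40.7, 58.5, 14.7 and 25.4 CPM, and the TE estimate with cercosporamide was 0.13 (standard error 0.273, adjusted p = 0.797). The other small subunit factors that rose in TE ran from WDR43 (0.52, adjusted p = 0.144) to NOL11 (1.55, adjusted p = 0.000288). Among all members, UTP18 (adjusted p = 0.142) and WDR43 stood just inside the limit of 0.15, and the next members beyond it were NOP53 (adjusted p = 0.154) and RRP7A (adjusted p = 0.245).

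TE rose for 5 of the 15 large subunit factors and fell for none in edgeR's test, beside 15.8% and 12.6% of tested genes. Their median was 0.16. GNL2, a GTPase of late pre-60S particles, had 53.0, 24.4, 71.2 and 84.5 CPM in polysome-associated RNA with DMSO, 84.5, 29.1, 92.5 and 91.5 with CID661578 and 144, 71.5, 126 and 166 with cercosporamide. Replicate 2 was the lowest library in each group, and the 3 other cercosporamide libraries lay above every DMSO library. Total GNL2 RNA was 55.2, 24.6, 112 and 78.6 CPM, 76.3, 29.8, 44.8 and 55.3 CPM and 31.7, 28.2, 73.3 and 48.5 CPM. The TE change was 1.68 (standard error 0.292, adjusted p = 0.000597), with 2.24, 1.35, 1.43 and 1.66 in the replicates.

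GNL3, the nucleolar GTPase nucleostemin, had 75.7, 43.4, 79.2 and 85.0 CPM in polysome-associated RNA with DMSO, 131, 58.1, 95.6 and 117 with CID661578 and 149, 101, 162 and 201 with cercosporamide. All cercosporamide libraries lay above the DMSO libraries, and so did 3 of 4 CID661578 libraries. Total GNL3 RNA was 60.9, 86.6, 78.2 and 84.2 CPM, 102, 72.6, 83.0 and 95.4 CPM and 61.3, 61.3, 103 and 87.0 CPM, with overlap. Its TE change was 1.13 (standard error 0.235, adjusted p = 0.00217). RRP15, a factor of pre-60S particles, had 22.0, 15.8, 22.7 and 24.8 CPM in polysome-associated RNA with DMSO, 30.8, 26.6, 28.6 and 33.7 with CID661578 and 52.3, 31.5, 53.4 and 52.3 with cercosporamide. Here the libraries of both compounds lay above all DMSO libraries. Total RRP15 RNA was 23.7, 24.2, 30.3 and 24.1 CPM, 35.4, 26.8, 26.4 and 30.0 CPM and 15.7, 20.3, 37.8 and 24.2 CPM. The TE change with cercosporamide was 1.27 (standard error 0.283, adjusted p = 0.00394), and with GC offsets it was 0.47 and not called (adjusted p = 0.252).

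PES1, BOP1 and WDR12 form the PeBoW complex, which acts in large subunit maturation. Of these 3, 1 rose in TE with cercosporamide, beside 15.8% of tested genes. WDR12 had 178, 92.9, 171 and 146 CPM in polysome-associated RNA with DMSO, 205, 116, 182 and 195 with CID661578 and 232, 209.9, 280.2 and 356 with cercosporamide. The cercosporamide libraries all lay above the DMSO libraries. Total WDR12 RNA was 105, 75.8, 77.4 and 74.8 CPM, 136, 68.8, 77.0 and 80.6 CPM and 88.0, 57.7, 163 and 70.1 CPM. Its TE change was 0.80 (standard error 0.276, adjusted p = 0.0482), with 0.63, 1.57, −0.36 and 1.37 in the replicates, so replicate 3 was below 0. WDR12 had no call without replicate 2 (0.54, adjusted p = 0.342), without replicate 4, without cercosporamide replicate 4, with neither plate nor replicate terms and with GC offsets (0.27, adjusted p = 0.530).

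BOP1 had 282, 256, 255 and 209 CPM in polysome-associated RNA with DMSO, 188, 296, 173 and 146 with CID661578 and 245, 432, 248 and 132 with cercosporamide. Its total RNA was 97.9, 75.3, 118 and 64.6 CPM, 84.9, 184, 134 and 132 CPM and 138, 178, 43.2 and 93.5 CPM. The groups overlapped in both fractions, and the TE estimate with cercosporamide was −0.25 (standard error 0.320, adjusted p = 0.645), with replicates from −1.19 to 1.40. Without replicate 3 it was called down (−0.82, adjusted p = 0.0695). PES1 had 112, 76.8, 87.1 and 92.4 CPM in polysome-associated RNA with DMSO, 101, 112, 58.8 and 64.5 with CID661578 and 175, 123, 74.0 and 105 with cercosporamide. Total PES1 RNA was 63.8, 47.1, 28.4 and 64.4 CPM, 39.8, 65.5, 41.3 and 64.2 CPM and 91.0, 60.5, 33.8 and 59.0 CPM. These groups overlapped as well, and the TE estimate was 0.07 (standard error 0.261, adjusted p = 0.896).

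NOP53, which docks the RNA exosome on pre-60S particles, had 2.08, 2.22, 3.45 and 2.36 CPM in polysome-associated RNA with DMSO, 0.526, 2.83, 2.02 and 1.66 with CID661578 and 0.981, 2.28, 1.72 and 1.32 with cercosporamide. Its total RNA was 1.56, 1.32, 1.47 and 0.883 CPM, 0.962, 2.64, 1.49 and 1.40 CPM and 2.06, 2.30, 1.29 and 2.08 CPM. It had the lowest counts of the members, and the groups overlapped. The TE estimate with cercosporamide was −1.18 (standard error 0.557, adjusted p = 0.154), below 0 in 4 of 4 replicates and not called. It was called down with DESeq2's size factors (−1.26, adjusted p = 0.131), with TMM factors taken without mitochondrial genes (−1.21, adjusted p = 0.140) and in the analysis of partial variance (−1.05, adjusted p = 0.0336). RRP1B, a nucleolar protein related to the pre-60S factor RRP1, had 19.5, 19.1, 9.33 and 23.5 CPM in polysome-associated RNA with DMSO, 13.1, 11.2, 9.75 and 11.8 with CID661578 and 20.0, 15.2, 9.88 and 23.2 with cercosporamide. With DMSO, 3 of 4 libraries lay above every CID661578 library. Total RRP1B RNA was 9.24, 8.75, 6.33 and 13.1 CPM, 12.2, 9.78, 5.58 and 8.52 CPM and 9.14, 11.7, 2.44 and 8.72 CPM, and the TE estimate with cercosporamide was 0.28 (standard error 0.362, adjusted p = 0.65).

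The members that the pattern takes by name alone were NOL8, a nucleolar protein, and NOL3, which encodes an apoptosis repressor. Polysome-associated NOL8 RNA was 13.2, 6.57, 6.81 and 13.1 CPM with DMSO, 23.1, 11.8, 15.4 and 18.7 with CID661578 and 25.6, 16.6, 26.2 and 43.0 with cercosporamide. All cercosporamide libraries lay above the DMSO libraries, and 3 of 4 CID661578 libraries did. Total NOL8 RNA was 5.50, 15.9, 11.6 and 12.0 CPM, 19.7, 10.8, 13.4 and 15.0 CPM and 8.50, 4.39, 12.7 and 12.5 CPM. Its TE change was 1.75 (standard error 0.387, adjusted p = 0.00368), with 0.33, 3.13, 1.78 and 1.65 in the replicates. NOL3 had 29.4, 30.5, 10.3 and 21.3 CPM in polysome-associated RNA with DMSO, 28.9, 39.3, 11.9 and 29.1 with CID661578 and 43.1, 43.3, 18.8 and 36.4 with cercosporamide. With cercosporamide, 3 of 4 libraries lay above every DMSO library. Total NOL3 RNA was 31.8, 22.9, 9.10 and 17.8 CPM, 26.5, 44.0, 15.0 and 41.0 CPM and 26.9, 45.9, 9.38 and 28.6 CPM, and the TE estimate was 0.29 (standard error 0.293, adjusted p = 0.547). It was called up with GC offsets (0.69, adjusted p = 0.0688) and in the analysis of partial variance (0.64, adjusted p = 0.0732). Tested alone, polysome-associated NOL3 RNA rose with cercosporamide, with an estimate of 0.64 (standard error 0.183, adjusted p = 0.0188), and it was not called without replicate terms (0.59, adjusted p = 0.371).

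With CID661578 at 40 µM, no member was called for TE by edgeR, where 0.207% of tested genes were called in either direction. At an unadjusted p below 0.05, 4 members were higher and 3 lower, beside 4.92% and 3.95% of tested genes. DESeq2 and the analysis of partial variance each called 0 members up and 0 down. Among tested genes, DESeq2 called 24 up and 30 down, and the analysis of partial variance 15 and 22. From the same libraries the paper, using anota2seq, reports more translationally regulated mRNAs with CID661578 than any of these fits called. That method was not run here, and the reason for the gap was not tested. The median TE change was 0.04 for the members and 0.03 for all tested genes, over a range among members from −0.95 for NOP53 to 0.80 for NOP58. The NOP58 estimate was 0.80 (standard error 0.238, adjusted p = 0.435), and that of DNTTIP2 was 0.74 (standard error 0.252, adjusted p = 0.489). Without replicate 1, TE was called up for DNTTIP2 (1.03, adjusted p = 0.0929), NOP58 (1.02, adjusted p = 0.0901) and UTP6 (0.87, adjusted p = 0.122), and down for BOP1 (−1.12, adjusted p = 0.121), where 98 of the 12058 tested genes were called up and 248 down. The polysome minus total GC value against DMSO was −0.34 in replicate 1 with CID661578 and 0.94, 0.95 and 1.42 in replicates 2 to 4. Across members, the TE change with CID661578 correlated with GC content with r = −0.73 and rho = −0.72, and across 11571 tested genes with r = −0.54.

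Polysome-associated RNA tested alone gave calls with CID661578. It rose for 7 members (12.3%), where 6.34% of tested genes rose, and fell for 3 (5.26%), where 3.93% of tested genes fell. The rises were NOP58 (0.77, adjusted p = 0.0119), DNTTIP2 (0.75, 0.0324), NOL8 (0.83, 0.0349), UTP6 (0.52, 0.106), RRP15 (0.51, 0.113), GNL3 (0.49, 0.109) and NOL11 (0.47, 0.148). NOL11, a factor of ribosomal RNA transcription and early processing, was named after its values were seen. The falls were NOL6 (−0.64, adjusted p = 0.0925), POLR1A (−0.64, 0.083) and RRP1B (−0.57, 0.143). Without replicate terms in the model, edgeR called 0 members, with 3 higher and 3 lower at an unadjusted p below 0.05, and it called 35 rises and 36 falls of tested genes. With GC offsets it called NOP58 alone, beside 201 rises and 142 falls of tested genes. Leaving out 1 replicate at a time gave between 2 and 4 rises and between 0 and 2 falls, beside 254 to 567 rises and 145 to 475 falls of tested genes. Leaving out cercosporamide replicate 4 gave 10 rises and 3 falls, beside 1111 and 586 tested genes, and the fit to all libraries had 765 and 474. The CID661578 polysome libraries all lay above those of DMSO for 1 member, RRP15 (3.83% of tested genes), and all below for 1, POLR1A (2.92% of tested genes), and shares near these are not a result about the members.

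Total RNA gave no called member with CID661578, where 0.473% of tested genes were called in either direction by edgeR. At an unadjusted p below 0.05, 2 members were higher and 2 lower, beside 3.45% and 3.75% of tested genes. DESeq2 called 0 members, beside 101 higher and 60 lower tested genes. The median change was −0.00 beside −0.03 for all tested genes.

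The TE changes of both compounds rest on the same DMSO libraries, so they were set against each other in a test in which the DMSO libraries cancel. Cercosporamide gave a higher TE change than CID661578 for 15 members (26.3%), where 7.57% of tested genes were higher. It gave a lower one for 2 members (3.51%), where 7.93% of tested genes were lower. The median difference was 0.44 for the members and 0.03 for all tested genes. Without replicate 2 there were 7 higher members and 0 lower, with 16 and 1 at an unadjusted p below 0.05, beside 172 higher and 221 lower tested genes. The number of lower members was 1 without replicate 1 and 4 without cercosporamide replicate 4, beside 276 and 927 tested genes. The fit to all libraries had 956 lower tested genes. With neither plate nor replicate terms edgeR called 0 members in either direction, with 11 higher and 1 lower at an unadjusted p below 0.05, and called 4 tested genes higher and 14 lower. In the abundant class, NCL differed by 0.99 (standard error 0.226, adjusted p = 0.0147) and NPM1 by 0.71 (standard error 0.241, adjusted p = 0.0791). Leaving out replicate 1, 2 or 3 ended the NPM1 call, with adjusted p-values of 0.192, 0.320 and 0.167, and NCL kept its call in each of these fits. Without replicate 2 the NPM1 estimate was 0.63. The differences were 1.43 (standard error 0.252, adjusted p = 0.00541) for DNTTIP2, 1.36 (standard error 0.380, adjusted p = 0.0357) for NOL8 and 1.19 (standard error 0.239, adjusted p = 0.0078) for NOP58. NOL8 had no call without replicate 2 (1.22, adjusted p = 0.167). The lower members were POLR1D, at −1.06 (standard error 0.281, adjusted p = 0.0275), and NOP10, at −0.63 (standard error 0.251, adjusted p = 0.133). For NOP10 the TE estimate was −0.33 with cercosporamide and 0.30 with CID661578, and neither was called alone. POLR1D had no call for the difference without replicate 2 (−0.92, adjusted p = 0.215), and NOP10 had none under 8 of the alternatives, among them GC offsets and leaving out replicate 1, 2 or 3.

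In DMSO-treated cells, 23 members were more abundant in polysome-associated than in total RNA (40.4%, beside 26.4% of tested genes), and 9 were less abundant (15.8%, beside 29.6%). The members' median difference was 0.21 on the log2 scale, and that of all tested genes was −0.01. These differences are relative to the other genes of a library. With TMM factors taken within each fraction, the median of all tested genes moved to 0.26 and that of the members to 0.49, and 32 members were higher and 3 lower, beside 4728 higher and 2459 lower tested genes, where the other factors gave 3178 and 3570. Without replicate 2 or without replicate 3, 4 members were lower, beside 3106 and 2928 tested genes. POLR1A had the highest difference, 1.92 (standard error 0.212, adjusted p = 1.34e-07), followed by BOP1 at 1.52 (standard error 0.229, adjusted p = 9.63e-06). POLR1D had the lowest, −1.97 (standard error 0.196, adjusted p = 2.76e-08), and NOP10 the next, −1.71 (standard error 0.182, adjusted p = 8.14e-08). Across the 57 members this difference correlated with coding length with r = 0.55 and rho = 0.51, and across 10085 tested genes with r = 0.44 and rho = 0.61, as a description across genes measured in the same libraries.

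**Figure D5:**
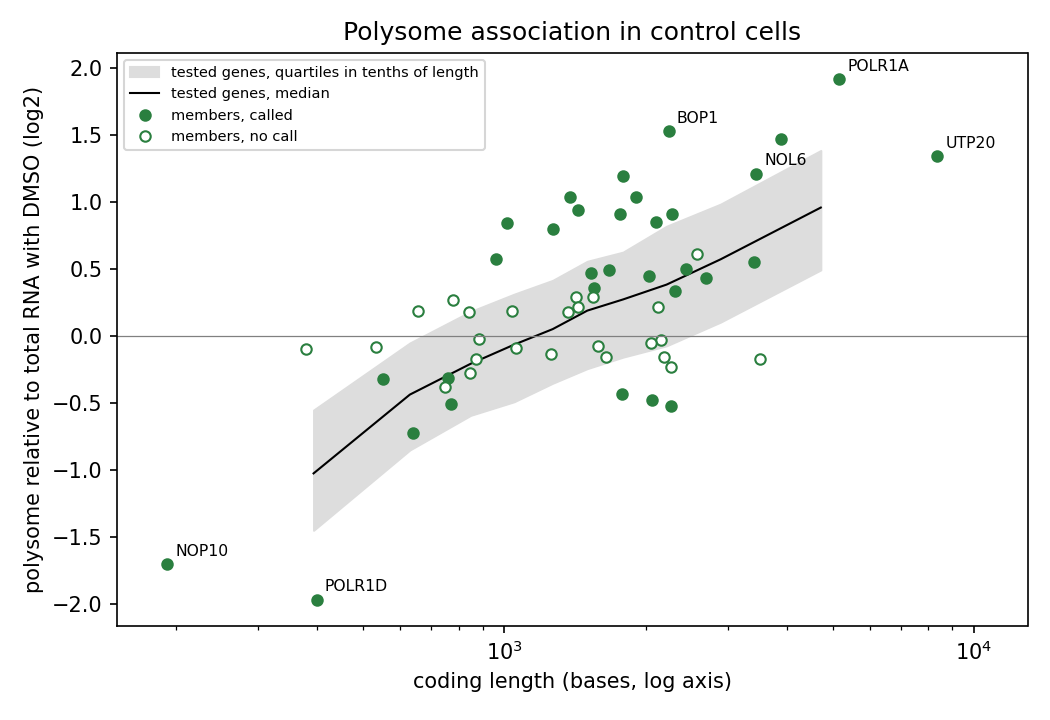
Polysome-associated relative to total RNA in DMSO-treated cells (log2) against coding length (bases, log axis) for the 57 members, with the median and quartiles of tested genes in 10 bins of length. Filled points passed the call; POLR1A lies highest at 1.92 and POLR1D lowest at −1.97.

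Levels between genes were compared per kilobase of the canonical transcript. In total RNA with DMSO, FBL was at 1428 ± 528 CPM per kilobase (SD, n = 4), NOP10 at 840.2 ± 109 and NPM1 at 603 ± 61.3. The intervals of mean ± SD of FBL and NOP10 overlapped, and those of NOP10 and NPM1 did not. Without division by length NOP10 was at 426 ± 55.1 CPM, below NPM1 at 795 ± 80.9, so their order turned. The lowest levels were those of NOP53, at 0.870 ± 0.200, and POLR1A, at 1.01 ± 0.278, which lay within their spread of each other, and of NOP9, at 0.860 ± 0.168, an RNA-binding factor named after its values were seen. In plain CPM, POLR1A was at 12.6 ± 3.47, above NOP9 at 5.20 ± 1.02.

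A wider list of the pathway holds 123 other factors of RNA polymerase I transcription, small nucleolar ribonucleoproteins, both subunits and the RNA exosome, of which 121 were tested. With cercosporamide, TE rose for 51 of them (42.1%) and fell for 5 (4.13%), with a median of 0.51. By class, TE rose for 4 of 9 polymerase I factors, 2 of 11 ribonucleoprotein factors, 18 of 39 small subunit factors, 21 of 47 large subunit factors and 6 of 15 exosome factors, and it fell for 0, 2, 1, 1 and 1 of them in the same order. The shares of the ribonucleoprotein class, 18.2% up and 18.2% down, were near the 15.8% and 12.6% of all tested genes. The largest changes of the list, named after they were seen, were rises of CEBPZ (2.17, standard error 0.262) and of the kinase RIOK2 (1.94, standard error 0.240, both adjusted p = 3.52e-05) and a fall of ZNF593 (−1.27, standard error 0.248, adjusted p = 0.00140). Polysome-associated RIOK2 RNA was 48.5, 27.9, 42.7 and 53.2 CPM with DMSO and 135, 89.2, 163 and 220.5 CPM with cercosporamide, and these did not overlap. CEBPZ had 38.1, 23.2, 13.2 and 30.9 CPM with DMSO and 100.4, 65.0, 71.4 and 106 CPM with cercosporamide. With CID661578, edgeR called 0 of the 121 for TE, with 8 higher and 3 lower at an unadjusted p below 0.05 and a median of 0.12. Their polysome-associated RNA rose for 18 (14.9%, beside 6.34% of tested genes) and fell for 3 (2.48%, beside 3.93%). Cercosporamide gave a higher TE change than CID661578 for 33 of the 121 (27.3%, beside 7.57%) and a lower one for 4 (3.31%, beside 7.93%).

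Promoter sequences of the members were looked at as a description of the genes. Of the 57 members, 50 are in a RefSeq table of promoters (GRCh38.p14). It holds 250 bases before and 50 after an annotated start of each gene. The promoters were searched for 6 motifs. The motif CACGTG, known as the E-box and read the same on both strands, was in 18 of the 50 (36.0%), in 10.65% of 8546 promoters of tested genes and in 7.435% of all 27305 promoters. TE rose with cercosporamide for 7 of these 18 members (38.9%) and for 15 of the 32 without the motif (46.9%). The ELK/ETS motif was in 32% of the members' promoters and in 21.79% of those of tested genes, and the NRF1 core in 6% and 2.527%. The GC-box was in 64% of the members' promoters beside 71.94%, the CCAAT box in 30% beside 37.67% and the TATA box in 4% beside 5.231%. None of these shares was tested. The windows show the E-box in capitals for 3 members that rose, GNL2, NOL8 and UTP14A, and for 2 without a call, FBL and PES1, each written 5′ to 3′ on the gene's strand. Their promoters are chr1:37595888-37596187 (minus strand), chr9:92325301-92325600 (minus), chrX:129905914-129906213 (plus), chr19:39846330-39846629 (minus) and chr22:30591861-30592160 (minus).
GNL2: gtacgtcgtgcaCACGTGgtccggcgtggt
NOL8: gctccgttgggaCACGTGaccagaagttag
UTP14A: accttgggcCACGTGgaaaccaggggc
FBL: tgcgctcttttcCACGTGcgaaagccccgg
PES1: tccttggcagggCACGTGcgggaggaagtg
Counted from the annotated start, the E-box began at position 4 in GNL2, −9 in NOL8, −241 in UTP14A, 7 in FBL and 14 in PES1. For PES1 the start used lies inside the gene, whose RefSeq extent on chromosome 22 runs from 30576625 to 30607013. A match describes the letters of the window only, and binding was not measured.

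Other genes lie over the exons of some members, and the counts ignore the strand. In the GENCODE v44 annotation, a readthrough gene on the same strand covers 96.2% of NOP2 exons, and ERCC1 on the opposite strand covers 56.4% of POLR1G exons. A protein-coding gene on the same strand covers 27.8% of NOL12 exons. On the opposite strand, CIDEB covers 26.1% of NOP9 exons, ARL10 24.4% of NOP16 exons and NOP14-AS1 20.6% of NOP14 exons. For NOP58, a noncoding gene on the opposite strand covers 13.7% of its exons. Of the 24 rises with cercosporamide, 10 were called under each of 17 alternative settings, namely DNTTIP2, GNL2, GNL3, NCL, NOL11, NOL8, NOP58, UTP15, UTP3 and UTP6. These settings refit the same libraries or part of them. The share of all tested rises that kept their call throughout was not taken.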

How the data were processed

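Total cytosolic and polysome-associated RNA of 12 plates of PANC-1 cells gave 24 Smart-seq2 libraries. The deposited values are counts for 54583 genes, without normalization. To make them, the authors used bcl2fastq 2.20.0.422 and FastQC 0.11.8, removed ribosomal RNA reads with BBDuk, aligned to hg38 with HISAT2 and counted with featureCounts of RSubread at its defaults on RefSeq genes. Strand is ignored there, and a multi-mapping read counts once at every place it aligns. The labels name RPMI as the medium and the paper's methods name DMEM. No spike-in is listed, so changes are relative to the other genes of a library. The depth of each library limits the precision of low counts.

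The filter kept the 12058 genes with no zero count. Counts were scaled by TMM over all libraries and tested in R 4.3.3 with edgeR 4.0.16 (quasi-likelihood test, Benjamini-Hochberg adjustment over all tested genes). The TE model held 12 plate terms, 4 terms for replicate within the polysome fraction and the interaction of compound and fraction (6 residual and 18.3 prior degrees of freedom), called at an adjusted p below 0.15 and a change over 1.2-fold. Fractions tested alone had replicate terms and no fold threshold. The p-values measure spread between replicates. The replicate is the study's batch. Pairing was checked across genes by correlating deviations from group means between treated and DMSO libraries sharing a replicate number, and 13 of 16 pairs exceeded r = 0.1, over −0.02 to 0.58.

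The members and lists were chosen with earlier results of these data known. Values in every library were given for the 5 largest TE rises and falls with cercosporamide among called members with 1 sign in 4 of 4 replicates, 15 fixed members, the highest and lowest member of each role, and members called with CID661578, up to 5 in each direction. Transcript features came from GENCODE v44 and promoters from RefSeq. Groups were called apart where no library overlapped.

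Alternatives were DESeq2 1.42.0, edgeR with DESeq2's size factors, TMM taken per fraction or without mitochondrial genes, filterByExpr or no filter, a threshold of 0.05, DMSO with 1 compound, no replicate terms, no replicate or plate terms, GC offsets, plain CPM in place of CPM per kilobase, and each replicate left out. An analysis of partial variance was written after the description of anota2seq, which was not available. With CID661578 it called fewer genes than the paper reports from anota2seq, so it does not stand in for that method. Leaving out cercosporamide replicate 4 was chosen after seeing the data.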

Additional observations from a re-analysis of the deposited data

Results flagged for a closer look

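Among 168 groups of 4 libraries, covering the counts of the named members, the total counts and the members' share of counts, 7 held a library far from the other 3 by Dixon's criterion, which chance meets in about 1 in 20 groups. The total counts of the polysome library of cercosporamide replicate 4 were 1592459. In total RNA with DMSO, NOL6 was at 36.7 CPM and WDR12 at 105 CPM in replicate 1, and RRP15 was at 30.3 CPM in replicate 3. In total RNA with CID661578, NOP10 was at 577 CPM in replicate 3. GNL2 was at 29.1 CPM in polysome-associated RNA of CID661578 replicate 2. RRP15 was at 31.5 CPM in polysome-associated RNA of cercosporamide replicate 2.

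For 17 members the TE change differed between the compounds in edgeR's test of the difference, cercosporamide minus CID661578, at doses that differ. It was higher with cercosporamide for DNTTIP2 (1.43), NOL8 (1.36), NOL10 (1.31), NOP58 (1.19), GNL2 (1.05), NOL11 (1.05), UTP6 (1.02), NCL (0.99), UTP14A (0.98), RRP15 (0.98), GNL3 (0.83), RRP9 (0.72), NPM1 (0.71), DKC1 (0.71) and UTP18 (0.70). It was lower for NOP10 (−0.63) and POLR1D (−1.06). NOL10, NOL11, RRP9 and UTP18 were named after their values were seen.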

How the results depend on the processing

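Of the member counts and medians under the alternatives, 224 kept within 1.5 times or 1 SD of the reported value and 48 did not. Of the values for single named members, 2788 kept their direction and side of the threshold, 157 lost a call, 38 gained one, 138 changed sign with no call in either fit, and none with a call changed sign. WDR36, not among the named members, was called up in TE with cercosporamide and had an estimate of −0.02 with GC offsets. The cause of the differences was not tested.

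With no replicate and no plate terms, TE rises with cercosporamide numbered 13 and falls 1, with a median of 0.21, beside 621 and 336 tested genes. The difference between compounds gave 0 higher and 0 lower members (edgeR, 11 and 1 at an unadjusted p below 0.05), beside 4 and 14 tested genes. With DMSO, 3 members were lower in polysome-associated than total RNA, beside 2841 tested genes. With no replicate block but plate terms, the difference gave 1 lower member, beside 746 tested genes. In polysome-associated RNA without the replicate block, edgeR called 17 rises and 0 falls with cercosporamide (20 and 2 at an unadjusted p below 0.05). With CID661578 it called 0 rises and 0 falls (3 and 3). Tested genes numbered 1130 and 793 with cercosporamide and 35 and 36 with CID661578.

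With GC offsets, TE fell for 1 member with cercosporamide, beside 1375 tested genes, and the difference gave 1 lower member, beside 1210. Polysome-associated RNA with CID661578 gave 1 rise and 0 falls in edgeR (5 and 7 at an unadjusted p below 0.05), beside 201 and 142 tested genes. Total RNA with cercosporamide gave 2 rises, beside 574 of 12058 tested genes. At an adjusted p below 0.05, TE fell for 1 member with cercosporamide, beside 779 tested genes. The difference gave 1 lower member, beside 411 tested genes. With DMSO, 5 members were lower in polysome-associated RNA, beside 2862 tested genes. Polysome-associated RNA with CID661578 gave 3 rises and 0 falls in edgeR, beside 260 and 100 tested genes. Without a filter 28470 genes were tested. TE fell for 1 member with CID661578, beside 90 of these genes, and the difference gave 1 lower member, beside 779. With DMSO, 3 members were lower in polysome-associated RNA, beside 3225 genes. Polysome-associated RNA gave 0 falls with cercosporamide in edgeR (2 at an unadjusted p below 0.05), beside 1248 genes. It gave 4 rises with CID661578, beside 739 genes. TMM within each fraction gave 3 lower members with DMSO, beside 2459 tested genes. With DMSO and 1 compound only, polysome-associated RNA fell for 6 members with CID661578, beside 939 tested genes. The fit to all libraries gave 3 members and 474 tested genes.

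Over the 4 fits with 1 replicate left out, the TE rises with cercosporamide ranged from 16 to 22 and the falls from 1 to 4. Tested genes there ranged from 1044 to 1660 and from 768 to 1677. TE calls with CID661578 ranged from 0 to 3 upwards and from 0 to 1 downwards, and the calls appeared without replicate 1. Tested genes there ranged from 0 to 98 and from 12 to 248. The difference ranged from 7 to 16 higher and from 0 to 3 lower members, beside 172 to 859 and 221 to 861 tested genes. Members lower in polysome-associated RNA with DMSO ranged from 4 to 7, beside 2928 to 3273 tested genes. Polysome-associated RNA falls with cercosporamide ranged from 1 to 5, beside 1239 to 1688 tested genes. With CID661578 its rises ranged from 2 to 4 and its falls from 0 to 2, beside 254 to 567 and 145 to 475 tested genes. Total RNA rises with CID661578 ranged from 0 to 1, beside 7 to 57 tested genes. Leaving out cercosporamide replicate 4 alone, chosen after seeing the data, gave 23 TE rises and 3 falls with cercosporamide, beside 1809 and 1375 tested genes. The difference gave 17 higher and 4 lower members, beside 822 and 927 tested genes. In this fit 8 members were lower with DMSO, beside 3602 tested genes. Polysome-associated RNA with CID661578 gave 10 rises and 3 falls, beside 1111 and 586 tested genes. FBL stood above NPM1 in total RNA with DMSO per kilobase and in plain CPM, and NOP10 stood above NPM1 per kilobase and below it in plain CPM.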
